A study of Mus musculus with 2 samples.

Results

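Mir203, Mir205 and Mir31 are the genes of 3 microRNAs best known from stratified epithelia such as the epidermis. They were picked by gene identifier, and all 3 were found among the 1973 gene rows of the small RNA tables of the embryonic mouse intestine. The study holds 1 group, whole intestine of B6NCrl mouse embryos at 14.5 days of development, in 2 libraries labelled as biological replicates 1 and 2. The labels name no treatment and no altered allele. All 1894 rows that could be named are microRNA genes, so the messenger RNA markers of stratified epithelium were not measured and the 3 genes are described one by one. They describe each sample as the intestine of 1 pup but give the sex as a pool of males and females. Replicate 1 was collected on day 17 and replicate 2 on day 15 of the same month, so day and replicate cannot be told apart.

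MicroRNAs are small regulatory RNAs released from folded precursors. They pair with messenger RNAs, mainly through the bases near their 5′ end called the seed, and lower the output of those messages. In mouse skin, miR-203 appears as cells leave the basal layer, where it represses the basal cell regulator p63 and favours differentiation. MiR-205 marks basal and progenitor epithelial cells, and it shares with the miR-200 family the repression of ZEB1 and ZEB2, which drive loss of epithelial character. MiR-31 acts in the mouse hair cycle and also in stem cells of the adult mouse intestine, where it promotes proliferation.

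The mature sequences show that the 3 genes are not a sequence family, which is why each was read separately. Sequences are from RefSeq (GRCm38.p6), where all 3 genes were found, with the seed, bases 2 to 8, in capitals. Both arms of each hairpin are given, because the deposited counts are per gene and do not separate the arms.
mmu-miR-203-5p: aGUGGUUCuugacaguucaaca
mmu-miR-203-3p: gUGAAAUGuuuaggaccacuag
mmu-miR-205-5p: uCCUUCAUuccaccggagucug
mmu-miR-205-3p: gAUUUCAGuggagugaagcuca
mmu-miR-31-5p: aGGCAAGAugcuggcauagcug
mmu-miR-31-3p: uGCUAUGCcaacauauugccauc

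The 6 mature arms carried 6 different seeds. None of these seeds occurred in a mature microRNA of another gene among the 1738 mature sequences of the reference table. The annotated hairpins of the 3 genes also held no identical stretch of 20 bases with a microRNA hairpin at another place. Reads that aligned to several places were given to no gene, and for these 3 genes no annotated second copy was found that could draw such reads away.

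The annotated hairpins, with both mature arms in capitals, show where the arms sit.
Mir203 hairpin: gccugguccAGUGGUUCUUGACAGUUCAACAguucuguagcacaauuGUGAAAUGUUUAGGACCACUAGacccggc
Mir205 hairpin: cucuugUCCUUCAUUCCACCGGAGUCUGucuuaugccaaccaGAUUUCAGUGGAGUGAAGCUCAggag
Mir31 hairpin: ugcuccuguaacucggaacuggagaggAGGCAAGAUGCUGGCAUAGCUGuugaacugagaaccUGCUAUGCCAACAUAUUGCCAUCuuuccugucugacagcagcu

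The Mir203 hairpin had 76 bases, that of Mir205 68 and that of Mir31 106, against a median of 79 over the 1005 hairpins of the reference table. Their GC contents lay close together, at 48.7% for Mir203 and 50% for both Mir205 and Mir31, with a median of 51.7% over all hairpins. The arms were separated by 16, 14 and 14 bases. Predicted minimum free energies were -35.1 kcal/mol for Mir203, -33.8 kcal/mol for Mir205 and -48.7 kcal/mol for Mir31. Per base these were close, at -0.462, -0.497 and -0.459 kcal/mol. The annotated Mir31 hairpin extended further beyond its arms than the others did.

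**Figure D1:**
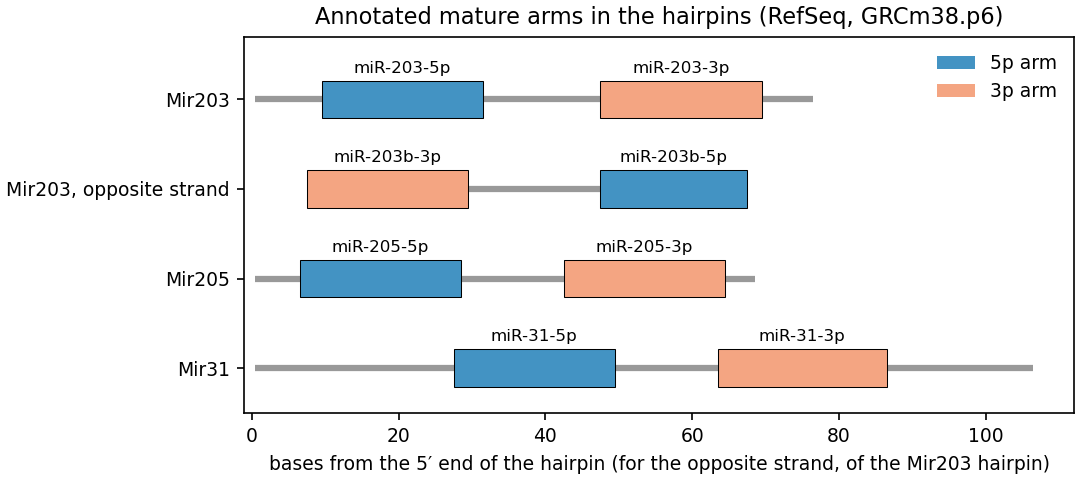
Annotated hairpins (grey lines) with their 5p arms (blue) and 3p arms (orange), drawn to scale; the horizontal axis gives bases from the 5′ end of the hairpin, and the opposite strand of Mir203 is placed on the Mir203 scale. The loops between the arms are 14 to 16 bases in the 3 genes, and the arms of miR-203b lie opposite those of miR-203.

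The 3 genes lie on different chromosomes and in different surroundings. Mir203 (ENSMUSG00000065574.1) lies on chromosome 12, 112130880 to 112130955, plus strand (GRCm38), between annotated genes. Its nearest gene on the same strand is Aspg, 3.32 kb upstream. Mir205 (ENSMUSG00000065533.1) lies on chromosome 1, 193507463 to 193507530, minus strand, within an exon of the long noncoding RNA gene 4631405K08Rik, which RefSeq names Mir205hg. Mir31 (ENSMUSG00000065408.1) lies on chromosome 4, 88910557 to 88910662, minus strand, within an exon of the long noncoding RNA gene AL805899.1. No other annotated microRNA gene lay within 10 kb of any of the 3 in GENCODE M21. RefSeq also places the hairpin of miR-203b, gene Gm51289, on the strand opposite Mir203.

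All 3 genes were well measured in both libraries, and their order was the same in each. Values are counts on the gene's strand scaled to a total of 1000000 such counts over all gene rows of that library (CPM). Replicate 1 held 15090126 such counts and replicate 2 held 3903472. Levels of different microRNAs are compared as counts and not as molecules, since ligation and PCR favour some sequences.

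Mir203, the microRNA gene linked to epidermal differentiation, was read 60828 times in replicate 1 and 16641 times in replicate 2. The levels were 4031 CPM (95% Wilson interval 3999 to 4063) and 4263 CPM (4199 to 4328), a mean of 4147 ± 164 CPM (SD, n = 2). Mir203 stood at rank 47 of all gene rows in both libraries. Its level was 32.1 times the median of 129 CPM over the 363 genes detected, that is, with at least 10 counts in both libraries. It exceeded 315 of these 363 genes.

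Mir205, the microRNA gene of basal and progenitor epithelial cells, had 13932 counts in replicate 1 and 4723 in replicate 2. These are 923 CPM (908 to 939) and 1210 CPM (1176 to 1245), a mean of 1067 ± 203 CPM (SD, n = 2). The SD was 19.0% of the mean, the widest relative spread among the 3. Mir205 took rank 104 in replicate 1 and rank 95 in replicate 2.

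Mir31, known from hair follicle and intestinal stem cells, had 9399 counts in replicate 1 and 2827 in replicate 2. These are 623 CPM (610 to 636) and 724 CPM (698 to 751), a mean of 674 ± 71.7 CPM (SD, n = 2). It stood at rank 117 in replicate 1 and 113 in replicate 2. Even this lowest of the 3 genes exceeded 247 of the 363 detected genes, and it lay far above the level that a count of 0 allows, 0.199 CPM in replicate 1 and 0.769 CPM in replicate 2. The intervals cover counting error only, since the tables record no molecular identifiers.

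Mir203 made up most of the counts of the 3 genes. It held 72.3% (95% Wilson interval 72.0 to 72.6%) of their summed counts in replicate 1 and 68.8% (68.2 to 69.4%) in replicate 2. Mir205 held 16.6% and 19.5%, and Mir31 held 11.2% and 11.7%. The intervals of Mir203, which cover counting error only, did not overlap between the libraries, while the order of the 3 genes was kept.

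Mir203 exceeded Mir205 4.37-fold in replicate 1 and 3.52-fold in replicate 2 (log2 ratio 1.97 ± 0.22, SD, n = 2). It exceeded Mir31 6.47-fold and 5.89-fold (log2 ratio 2.63 ± 0.10). Mir205 exceeded Mir31 1.48-fold and 1.67-fold (log2 ratio 0.65 ± 0.12). Each of these ratios was larger than its own gap between the libraries, which was 0.31, 0.14 and 0.17 on the log2 scale. The order Mir203, Mir205, Mir31 thus held beyond the spread of the 2 libraries. No test was run, as an exact test over 2 libraries cannot reach 0.05.

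In the order of all genes, however, none of the 3 could be separated from its direct neighbours. Mir369 of the Dlk1-Dio3 region stood just above Mir203 at 4177 ± 551 CPM, and Mir342 just below it at 4079 ± 236 CPM. Mir205 lay between Mir181b-2 (1077 ± 17.7 CPM) and Mir532 (1021 ± 68.8 CPM). Mir31 lay between Mir210, a microRNA induced by low oxygen (695 ± 47.9 CPM), and Mir540 (666 ± 5.77 CPM). In all 6 pairs the ranges of the 2 libraries overlapped.

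The genes most like each of the 3 were found by the distance of log2(CPM + 1) over the 2 libraries. For Mir203 they were Mir125a (distance 0.039), Mir342 (0.044) and Mir351 (0.065). For Mir205 they were Mir200a of the miR-200 family (0.074), Mir148a (0.093) and Mirlet7f-2 (0.16). Mir31 was nearest to Mir210 (0.086), Mir540 (0.14) and Mir34c (0.16). With 2 libraries this likeness describes level and little else.

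Within the gut epithelium the usual points of comparison are the miR-200 family and the genes of miR-192, miR-194 and miR-215. The first maintains epithelial identity, and the second marks intestinal epithelium. Mir203, Mir205 and Mir31 together made 0.558% of all counts in replicate 1 and 0.620% in replicate 2, a mean of 0.589 ± 0.0439%. The miR-200 family made 3.90 ± 0.556% and the intestinal epithelial genes 1.02 ± 0.168% (SD, n = 2 each). The sum of the 3 genes thus stood below both list sums in both libraries. Its log2 ratio was -2.72 ± 0.10 to the miR-200 family and -0.78 ± 0.13 to the intestinal list. These sums set 3 genes against 5 and 4, so the ratios depend on list length too. Mir194-1 and Mir194-2 of the intestinal list share sequence, so reads may be missing from that sum alone. Without that pair only Mir192 and Mir215 were left in the intestinal sum, and the second log2 ratio was -0.21.

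Gene by gene, Mir203 reached the level of single intestinal epithelial genes. Its 4031 and 4263 CPM exceeded Mir192, with 3223 and 3545 CPM, 1.25-fold in replicate 1 and 1.20-fold in replicate 2, more than the gap between the libraries. Against Mir215, with 2933 and 3954 CPM, it was 1.37-fold and 1.08-fold higher. That mean difference (log2 0.28) did not exceed its gap of 0.35. Mir203 also exceeded Mir194-2 (2565 ± 511 CPM) and Mir194-1 (778 ± 223 CPM), both of which share sequence.

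Set against the miR-200 genes, Mir203 lay between the abundant and the scarce members. It stood above Mir141 (2087 ± 432 CPM) and Mir200a (1090 ± 168 CPM). It stood below Mir429 (16430 ± 1398 CPM), Mir200c (12141 ± 2778 CPM) and Mir200b (7212 ± 785 CPM). Of the 9 genes in both lists, Mir203 was above 6 and below 3 in mean log2 ratio. Of these 9 ratios, 1 did not exceed its gap, that to Mir215.

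Mir205 matched Mir200a most closely. Mir205 had 923 and 1210 CPM and Mir200a had 972 and 1209 CPM in replicates 1 and 2, giving log2 ratios of -0.074 and 0.0015. The sign thus differed between the libraries. Mir205 was above 1 of the 9 genes, Mir194-1, and below the other 8 in mean log2 ratio. Mir31 was below all 9 in mean log2 ratio, but its ratio to Mir194-1 changed sign between the libraries (log2 0.01 and -0.37).

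**Figure D2:**
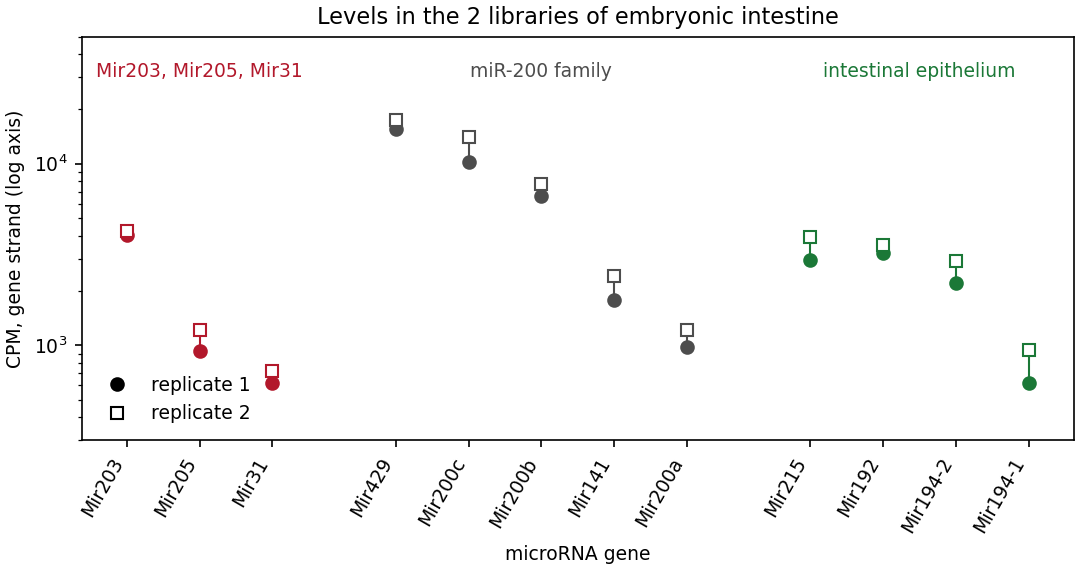
CPM on the gene's strand (log axis) of the 3 genes, the miR-200 family and the intestinal epithelial genes, in replicate 1 (filled circles) and replicate 2 (open squares), joined by a line. Mir203 lies at the level of Mir192 and Mir215, and Mir205 at that of Mir200a. On this scale every gene shown is lower in replicate 1, although Mir203 is not with TMM or DESeq2 scaling.

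Mir205 and Mir31 were lower in replicate 1 than in replicate 2 under every scaling tried, and Mir203 was lower by a small amount that changed sign with edgeR's TMM library sizes and with DESeq2 size factors. Differences are log2 of replicate 1 over replicate 2 with exact 95% counting intervals. Each was tested by a two-sided exact binomial test of the 2 counts against the ratio of library totals, and p-values were adjusted by the Benjamini-Hochberg method over all 363 detected genes. That test compares these 2 libraries only and ignores variation between animals.

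Mir205, at 923 CPM against 1210 CPM, showed a log2 difference of -0.39 (-0.44 to -0.34, adjusted p = 2.15e-54, exact binomial test). Mir31, at 623 against 724 CPM, showed a difference of -0.22 (-0.28 to -0.16, adjusted p = 2.06e-11, exact binomial test). Mir203, at 4031 against 4263 CPM, showed a difference of -0.08 (-0.11 to -0.06, adjusted p = 8.66e-10, exact binomial test). The Mir203 difference changed sign to 0.0018 with edgeR's TMM library sizes and to 0.012 with DESeq2 size factors, and lost its call (adjusted p = 0.925 and 0.480, exact binomial test). The interval of Mir205 did not overlap those of the other two.

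Such calls were common. Of all 363 detected genes, 159 passed the test, or 43.8%. The share depends on the count minimum: it was 19.8% of 768 genes with no minimum and 56.3% of 277 genes with at least 50 counts in both libraries. The 159 genes divided into 108 lower in replicate 1 (29.8%) and 51 higher in replicate 1 (14.0%). The median log2 difference over the 363 genes was -0.06 and the median absolute difference 0.15. The 3 genes had a median of -0.22. Larger absolute differences than that of Mir205 were found in 65 genes, than that of Mir31 in 133 and than that of Mir203 in 259. Those counts include genes of few reads, where counting error is large. Among the 152 detected genes with at least 1000 counts in both libraries, the median absolute difference was 0.105. The 95th percentile there was 0.399, just above the absolute difference of Mir205.

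The other epithelial genes were lower in replicate 1 too, also with TMM and DESeq2 scaling. All 5 miR-200 genes were lower in replicate 1 and passed, between -0.47 (Mir200c) and -0.17 (Mir429), with a median of -0.32. All 4 intestinal epithelial genes did likewise, between -0.59 (Mir194-1) and -0.14 (Mir192), with a median of -0.42. Beside these counts of calls stand 29.8% of all detected genes called lower in replicate 1. Calls in either direction rose to 56.3% of genes with at least 50 counts in both libraries. Relative to the summed miR-200 counts, Mir205 was nearly level between the libraries, at -5.25 and -5.15 on the log2 scale in replicates 1 and 2. Mir31 was likewise, with -5.81 and -5.89. Mir203 was further apart, with -3.12 and -3.33. In whole tissue, fewer cells of a type and less RNA per cell cannot be told apart.

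**Figure D3:**
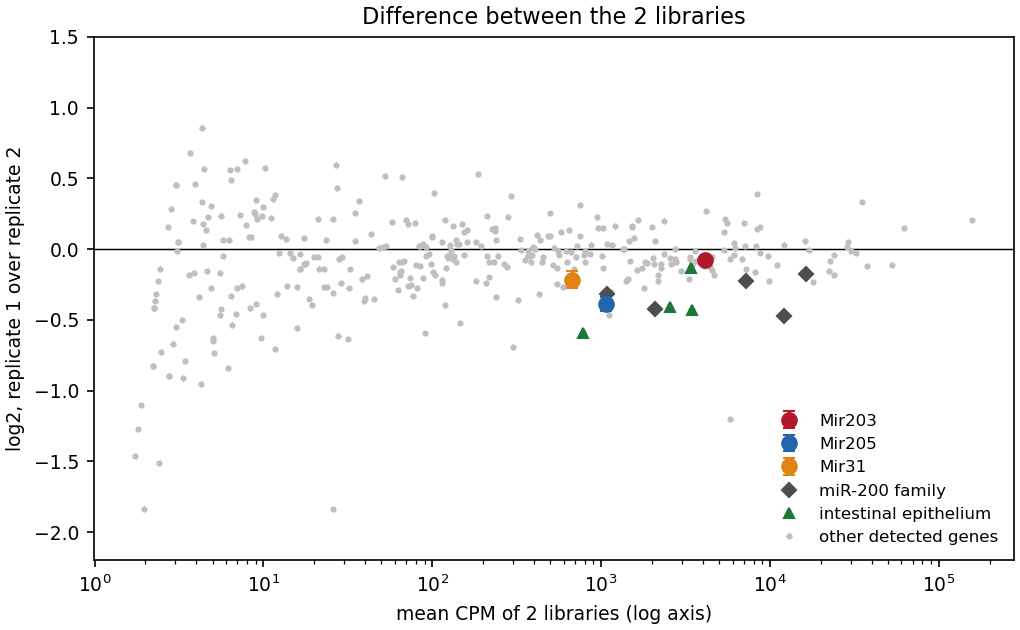
Log2 difference between the libraries (replicate 1 over replicate 2) against mean CPM (log axis) for the 3 genes, with exact 95% counting intervals, the miR-200 family, the intestinal epithelial genes and the other detected genes (grey). The 3 genes and both lists lie below 0, with Mir203 nearest to it at -0.08 (above 0 with TMM or DESeq2 scaling). The gene Mir802, at -6.42, lies below the axis.

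A wider list of microRNAs known from skin or from keratinocytes had calls in both directions, as did all detected genes, of which 29.8% were called lower and 14.0% higher in replicate 1. Nothing about the list is read from its calls. Of its 9 genes 8 were measured under these names and detected. Of these, 2 were lower in replicate 1 and passed, Mir21a (-0.23) and Mir23b (-0.18), and Mir24-2 was higher and passed (0.17, adjusted p = 0.0266, exact binomial test). The other 5 did not pass, with values of -0.02 for Mir125b-1, -0.05 for Mir125b-2, 0.05 for Mir34a, -0.05 for Mir34c and -0.03 for Mir184, and of these all but Mir34a changed sign with TMM and with DESeq2 scaling. The list's median was -0.04. Mir24-2, Mir125b-1, Mir125b-2 and Mir23b share sequence, so their levels are uncertain. In mean level, Mir23b (24075 ± 2164 CPM) and Mir21a (17954 ± 2032 CPM) stood above Mir203. Below Mir203 lay Mir34c (707 CPM), Mir125b-1 (623 CPM), Mir125b-2 (367.5 CPM), Mir34a (160 CPM) and Mir24-2 (149 CPM). Mir184, a gene of cornea and epidermis, was the lowest of the list, at 14.3 and 14.6 CPM in replicates 1 and 2.

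Markers of other organs and cell types were compared between the libraries in the same way, and their part in the differences above was not tested. Their counts of calls stand beside 29.8% of all detected genes called lower and 14.0% called higher in replicate 1. The pancreatic and endocrine list summed to 3634 CPM against 8284 CPM in replicates 1 and 2. Most of both sums was Mir375 alone, with 3497 and 8059 CPM. Mir217 had only 4.44 and 7.94 CPM, Mir216b 0.861 and 3.07 CPM, and Mir216a, which was not detected, 0.464 and 1.02 CPM. All 5 detected genes of the 6 in this list were lower in replicate 1 and passed, led in level by Mir375 (-1.20). Of these 5 genes, Mir7-1 and Mir7-2 share sequence, so their levels are uncertain. Mir802 had 1.59 and 137 CPM, and liver Mir122 had 39.8 and 51.0 CPM (-0.36). Mir122 and, among the leukocyte genes, Mir155 no longer passed with TMM or DESeq2 scaling (adjusted p between 0.0567 and 0.108, exact binomial test). The erythroid genes summed to 258 and 409 CPM (1 of 3 passed, lower) and the leukocyte genes to 448 and 557 CPM (2 of 3 passed, lower). The neural genes summed to 2258 and 2591 CPM, most of it Mir137 alone with 2042 and 2316 CPM. Of 7 neural genes measured 3 were detected, and 2 of these passed, lower in replicate 1, Mir137 (-0.18) and Mir132 (-0.34). Mir124a-2, Mir124a-3 and Mir9-2 had 0 counts in both libraries.

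Of the 2 smooth muscle genes 1 passed. Mir143, at 167962 against 146045 CPM, was higher in replicate 1 (0.20), while Mir145a (-0.01) did not pass. With TMM and DESeq2 scaling Mir145a was higher in replicate 1 and passed (0.07 and 0.08). These 2 genes summed to 171529 and 149642 CPM. Endothelial Mir126a was lower in replicate 1 by a small amount (-0.04) and higher with TMM (0.04) and DESeq2 (0.05) scaling. Skeletal muscle genes summed to 11.5 and 9.99 CPM, with Mir133a-1 at 0 counts in both libraries and Mir206, the only one of 5 measured that was detected, at 10.5 and 8.97 CPM (log2 difference 0.23, which did not pass). Of the 5 skeletal muscle genes the 4 other than Mir206 share sequence, as do 5 of the 7 neural genes, so reads may be missing from these sums. Mir211, known from melanocytes, had 0 counts in both libraries, which allows up to 0.199 and 0.769 CPM.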

How the data were processed

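Small RNA of 2 samples, labelled biological replicates 1 and 2 of 1 group, was analysed from the deposited raw read counts per gene. Per the labels, inserts were under 30 bases. Per the readme files deposited with the tables, the genome was mm10 and the annotation GENCODE M4. The aligner, trimming and counter are not given in the sources used here. From the values, the columns hold both strands summed, then sense counts, then antisense counts. In replicates 1 and 2, unaligned reads (12.4% and 13.8% of the table's reads), reads aligned to several places (26.5% and 26.6%) and reads on no gene on its own strand (3.90% and 3.88%) stayed out of totals and tests.

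Of 1973 gene rows, 1894 were named from GENCODE M21 (GRCm38). CPM is the gene's-strand count over the summed gene-row counts, times 1000000. Python 3.11.15, scipy 1.17.1, edgeR 4.0.16 and DESeq2 1.42.0 (size factors only) and RNAfold 2.7.2 were used. The exact binomial test was tested on simulated data with known folds and counting error only, and so without variation between animals. It took genes with at least 10 counts in both libraries, and an adjusted p under 0.05 passed. Replicates are separate samples per the labels, and with 1 group no condition was compared. The genes and lists were chosen with earlier results of these data known. Genes named were the 3 genes, their neighbours in level, the nearest 3 genes each and the listed markers. Listed genes with no row of that name (Mir24-1, Mir1a-2, Mir142a, Mir9-1) were not analysed here. Alternatives changed the scaling, strand, total, depth, count minimum, sharing genes and replicates.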

Additional observations from a re-analysis of the deposited data

Results flagged for a closer look

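Counts on the strand opposite Mir203 lay outside the main measurement and stood above the 3 counts that a count of 0 allows. There were 144 such counts in replicate 1 and 35 in replicate 2, or 0.236% (95% Wilson interval 0.201 to 0.278%) and 0.210% (0.151 to 0.292%) of the reads of both strands at the gene. The intervals of the 2 libraries overlapped. Mir205 and Mir31 had 0 opposite-strand counts in both libraries, which allows shares of up to 0.0215% and 0.0635% at Mir205 and 0.0319% and 0.106% at Mir31. Among the 363 detected genes, 20 had opposite-strand reads in each library, and 322 lacked them altogether. At least 10 in both were found in 5 genes. Of the 102 detected genes with a mean of at least 1000 CPM, 7 had such reads in each library and 4 had at least 10 in both. As a share of the reads of both strands, 9 genes exceeded Mir203 in both libraries.

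RefSeq annotates a hairpin on that strand, Gm51289, also called Mir203b, on chromosome 12, 112130887 to 112130946, minus strand (GRCm38.p6). Its mature arms, with seeds in capitals, are shown because they mirror those of miR-203.
mmu-miR-203b-5p: aGUGGUCCuaaacauuucac
mmu-miR-203b-3p: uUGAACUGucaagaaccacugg

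MiR-203b-5p is complementary to miR-203-3p over 20 bases, and miR-203b-3p to miR-203-5p over 20 bases. The tables do not say which arm the 144 and 35 reads came from, and their origin was not tested.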

How the results depend on the processing

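Of 98 values recomputed under 11 alternatives, 88 kept their direction and side of the threshold or moved by less than 1 SD. Part of these could not have changed, so the tally is no measure of robustness. Ratios between genes are the same under any scaling or total, and leaving out either replicate always moves a mean by less than 1 SD. The log2 difference of Mir203 between the libraries reversed to 0.0018 with TMM and 0.012 with DESeq2 size factors (adjusted p = 0.925 and 0.480, exact binomial test); those of Mir205 (-0.39 to -0.30) and Mir31 (-0.22 to -0.12) stayed negative and past the threshold. TMM and DESeq2 scaling took the median of all detected genes from -0.06 to 0.02 and 0.04. With all reads of the table as the total, levels were 2342 CPM for Mir203, 601 CPM for Mir205 and 380 CPM for Mir31, and the summed share 0.332%, as the total is larger. Without Mir143 in the total, Mir203 was at 4918 CPM, Mir31 at 798 CPM and the sum at 0.698%. With sequence-sharing genes left out, the ratio to the intestinal list was -0.21 on the log2 scale, since Mir194-1 and Mir194-2 leave it. Leaving out 1 replicate gave 4031 to 4263 CPM for Mir203, 923 to 1210 CPM for Mir205 and 623 to 724 CPM for Mir31. Genes past the test numbered 137 to 169 over these settings, while their share of the genes tested ran from 19.8% with no count minimum to 56.3% at 50 counts. No paired analysis was possible because the design has 1 group.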
